A study of Mus musculus with 2 samples.

Results

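The genes described here form the signalling cascade below the T cell receptor, without the receptor chains themselves. They are 40 named genes: proximal kinases, adaptors, enzymes of the calcium and NF-kB branches, and negative regulators. They were taken by symbol from 14732 gene symbols listed for at least 1 of 2 RNA sequencing libraries, and all 40 were found. The libraries came from CD8+ T cells of OT-I transgenic C57BL/6 mice, 6 to 8 weeks old, whose T cell receptor recognizes a peptide of ovalbumin (OVA). The cells of both groups were first activated with this peptide (2.5 ng/mL, with 10 U/mL of IL-2) for 24 h. They were then transduced with retrovirus, either the empty RVKM vector with its IRES-hCD2 cassette (control) or the same vector with Eomes (Eomes-overexpressing, below also "with Eomes"). Cells carrying human CD2 on their surface were sorted 48 h later, plated at 40000 cells per well and restimulated with the same doses for 3 days. A comparison of these 2 cultures asks how high levels of the T-box factor Eomes alter the transcripts of chronically stimulated T cells.

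When a T cell receptor binds its ligand, the kinase Lck phosphorylates the receptor tails, Zap70 docks there, and Zap70 in turn phosphorylates the scaffolds Lat and Lcp2 (SLP-76). On that scaffold Plcg1 produces the second messengers that open calcium channels for NFAT and activate protein kinase C theta and Ras for NF-kB and AP-1. Phosphatases, ubiquitin ligases, diacylglycerol kinases and inhibitory adaptors restrain each of these steps, and their balance is known to set how strongly a CD8+ T cell responds to antigen.

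There was 1 library per condition, so no difference between the conditions has a replicate check or a p-value. Values are FPKM as the authors computed them, sequenced fragments scaled to transcript length and to library depth, so that levels of different genes can be compared. Low values lay near steps of whole reads. At the best-fitting depth, 70.5% of 370 low values in control and 68.8% of 381 with Eomes were within 0.15 of a whole read. The depth was chosen for this fit, and some values would lie as near without steps. The steps place the depth at about 19300000 reads for control and 19000000 for Eomes-overexpressing cells. Depths whose fit to the steps was within 3% of the best ran from 19000000 to 19600000 and from 18900000 to 19450000, respectively, so the depths were not distinguishable. Intervals given for log2 ratios (Eomes-overexpressing over control) are exact 95% binomial intervals (Clopper-Pearson) on reads approximated from FPKM, transcript length and this depth. Such intervals hold the counting error alone, so they describe how these libraries differ rather than the conditions. *Eomes* itself was at an FPKM of 2.47 in control and 129.6 with Eomes. Reads from the vector and from the endogenous gene cannot be told apart.

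The defining markers of CD8+ T cells (*Cd3d*, *Cd3e*, *Cd3g*, *Cd8a* and *Cd8b1*) were listed in both libraries, with a summed FPKM of 978.1 in control and 720.0 with Eomes. *Cd8a* was at 181.8 and 99.1 (log2 ratio -0.88) and *Cd8b1* at 197.3 and 142.5 (-0.47). Both lay below the central 95% of log2 ratios of expressed genes at like level, and *Cd3d*, *Cd3e* and *Cd3g* lay inside it. Of 5 B cell markers, *Ms4a1* and *Pax5* were listed in neither library, and the list summed to 2.87 and 1.62. Of 5 myeloid markers, *Lyz2*, *Csf1r* and *Adgre1* were listed in neither library, and the list summed to 1.40 and 1.28. The 3 dendritic cell markers were all listed and summed to 2.55 and 1.73. The 3 CD4+ T cell markers were listed and summed to 13.9 and 11.8, nearly all of it *Zbtb7b*. Of 2 natural killer cell markers, *Ncr1* was listed in neither library and *Klrb1c* was at 0.31 and 5.74. Their part in the results below was not tested. In bulk RNA, fewer cells of a kind and less RNA per cell cannot be told apart.

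Most of the signalling genes were at nearly the same level in both libraries. All 40 had an FPKM of at least 1 in at least 1 library, which was the minimum for calling a gene expressed. Their FPKM ranged from 2.38 (*Sos1*) to 277.8 (*Lck*), with a median of 38.7 in control and 35.2 with Eomes. The summed FPKM of the 40 genes was 2454 in control and 2326 with Eomes, which is 94.8% of control. The sum over each whole library was also lower with Eomes, at 549987 against 562244 in control. Their median log2 ratio was -0.04 (25th to 75th percentile -0.19 to 0.14), beside a median of -0.0037 (-0.15 to 0.16) over all 9925 expressed genes. The log2 ratio was under 0 for 24 of the 40 and above 0 for 16, while 49.2% of all expressed genes lay above 0. Of the 40, 4 changed sign when each library was divided by its summed FPKM. A log2 ratio past 0.25 in either direction was found for 12 of the 40 (beside 31.9% of all expressed genes). The order of the genes by level was nearly the same in both libraries (Spearman's rho 0.97 over 40 genes of the same libraries, as a description).

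**Figure D1:**
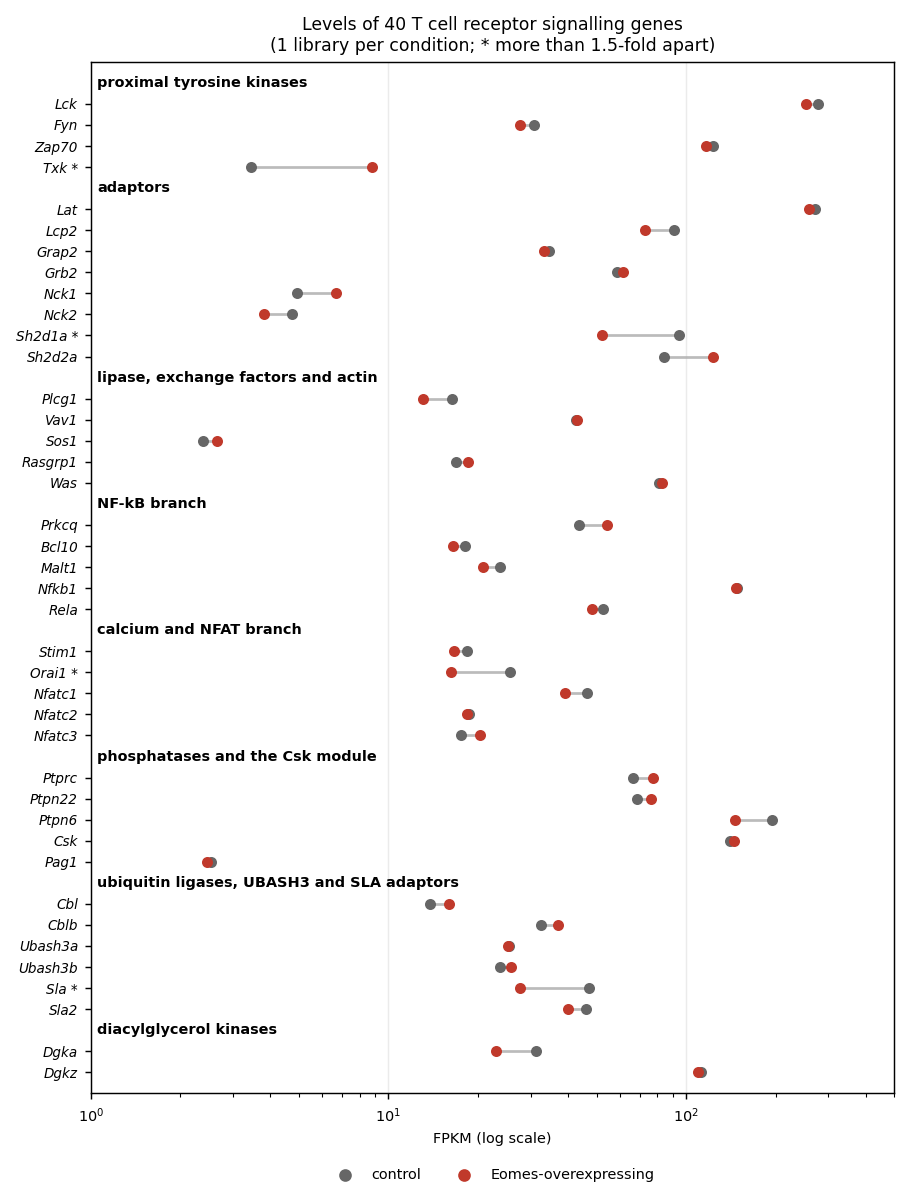
FPKM (log axis) of the 40 signalling genes in the control library (grey) and the Eomes-overexpressing library (red), grouped by role, with 1 point per library and asterisks at genes more than 1.5-fold apart. Most pairs of points nearly coincide, while *Txk* is at 3.45 and 8.84 and *Sh2d1a*, *Sla* and *Orai1* lie clearly lower with Eomes.

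A difference of more than 1.5-fold was found for 4 of the 40 genes, 1 higher (*Txk*) and 3 lower (*Sh2d1a*, *Sla* and *Orai1*) with Eomes. Over all expressed genes the share past 1.5-fold was 7.65%, with 2.46% higher and 5.19% lower, so a count of 4 of 40 is near the background. The background narrows with level. Among the 3799 genes with a mean FPKM of at least 20, 2.03% were past 1.5-fold, and 3 of the 28 signalling genes at that level were. A log2 ratio past 0.25 in either direction was found for 8 of these 28 genes, and for 18.6% of all genes at that level. These shares were not tested against each other. The split of 1 higher and 3 lower was 2 and 3 when each library was divided by its summed FPKM, and 2 and 2 when log2 ratios were centred on genes of like GC content (background 6.85%). *Sh2d2a* was the added gene in both cases, and *Orai1* was the gene lost in the latter.

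**Figure D2:**
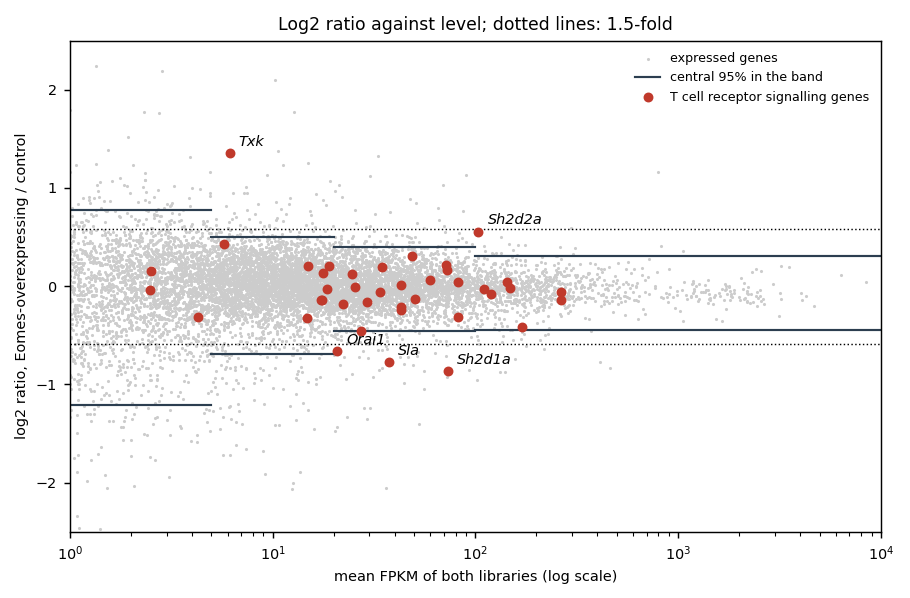
Log2 ratio (Eomes-overexpressing over control) against the mean FPKM of both libraries (log axis) for expressed genes (grey) and the 40 signalling genes (red), with the central 95% of log2 ratios drawn for 4 bands of level and 1.5-fold as dotted lines. *Txk* and *Sh2d2a* lie above and *Orai1*, *Sla* and *Sh2d1a* below the central 95% of their band, and 172 expressed genes fall outside the plotted range.

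Among the proximal tyrosine kinases, only *Txk* was past 1.5-fold. *Lck*, which phosphorylates the receptor tails, was at an FPKM of 277.8 in control and 252.2 with Eomes. *Zap70*, the kinase recruited to the phosphorylated tails, was at 122.9 and 116.7. *Fyn*, a Src family kinase like Lck, was at 30.8 and 27.6. These 3 kinases had log2 ratios of -0.14, -0.08 and -0.16, which lie inside the central 95% of expressed genes at like level, and *Zap70* turned to 0.02 after centring by GC content. The FPKM of *Lck* was 9.01 times that of *Fyn* in control and 9.15 times with Eomes.

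*Txk* encodes a kinase of the Tec family, whose members act on Plcg1. Its FPKM was 3.45 in control and 8.84 with Eomes, a 2.56-fold difference and a log2 ratio of 1.36 (interval 1.09 to 1.64, from about 156 and 394 reads). The Eomes library was thus the higher one, and the low end of the interval lay well above 1.5-fold. Only 0.322% of expressed genes had a higher log2 ratio. The log2 ratio was 1.28 after centring by GC content. *Tec*, a kinase of the same family, was at 8.04 and 12.8, a log2 ratio of 0.67 (interval 0.49 to 0.85). *Txk* lies on the minus strand of chromosome 5 of mm10 from 72695978 to 72752777, and its neighbour *Tec* lies upstream on the same strand, with 2.94 kb between the annotated spans. *Nfxl1*, the nearest expressed gene on the other side (136 kb), had a log2 ratio of 0.49. These neighbours were looked up after the value of *Txk* had been seen.

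The adaptors held both the lowest log2 ratio of the 40 genes (*Sh2d1a*) and the highest after *Txk* (*Sh2d2a*). *Sh2d1a* encodes SAP, a small SH2 adaptor that links receptors of the SLAM family to Fyn. Its FPKM was 94.8 in control and 52.1 with Eomes, a log2 ratio of -0.86 (interval -0.98 to -0.74, from about 1615 and 874 reads). It was 1.82-fold higher in control, and 2.50% of expressed genes had a lower log2 ratio. *Sh2d2a*, which encodes TSAd, an SH2 adaptor that binds Lck, was at 83.9 in control and 123.3 with Eomes. Its log2 ratio of 0.55 (interval 0.51 to 0.60) lay just under the 0.58 that corresponds to 1.5-fold, and was 0.66 after centring by GC content. The order of these adaptors was thus reversed. The ratio of *Sh2d2a* to *Sh2d1a* was 0.885 in control and 2.37 with Eomes, and their sum was 178.7 and 175.4. Whether these differences are linked was not tested. *Sh2d1a* lies on the plus strand of chromosome X of mm10 from 42502453 to 42529330. *Tenm1*, annotated over it on the other strand, was listed in neither library. The nearest expressed genes on either side of *Sh2d1a* were far off, *Stag2* at 225 kb and *Ocrl* at 5383 kb. They had log2 ratios of 0.30 and 0.

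The core scaffold genes differed less. *Lat*, the membrane scaffold, was at 270.0 in control and 258.8 with Eomes, and *Lcp2*, its cytosolic partner, at 90.8 and 72.8 (log2 ratio -0.32, interval -0.37 to -0.26). *Grap2* (Gads), which joins Lat to SLP-76, was at 34.6 and 33.3, and *Grb2*, which brings Sos1 to Lat, at 58.5 and 61.1. The Nck adaptors, which connect SLP-76 to the actin machinery, went in opposite directions from nearly equal levels. *Nck1* was at 4.93 and 6.66 and *Nck2* at 4.76 and 3.82, with log2 ratios of 0.43 and -0.32. Centring by GC content brought *Nck1* to 0.17 and *Nck2* to -0.24. Neither left the central 95% of expressed genes at its level.

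**Figure D3:**
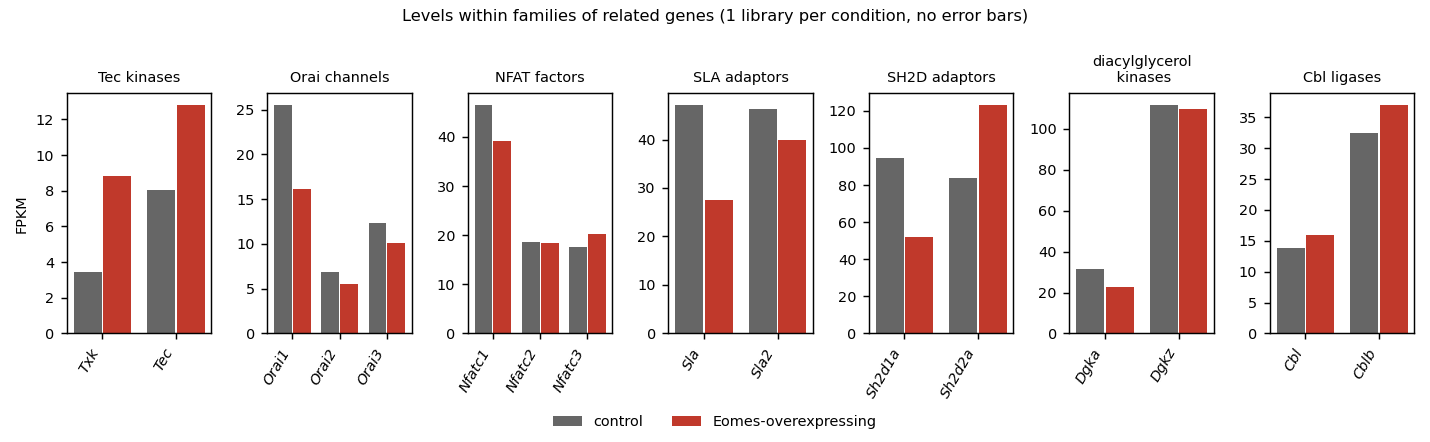
FPKM of related genes in control (grey) and Eomes-overexpressing cells (red), with 1 library per bar, no error bars and a separate axis from 0 for each family. *Sh2d1a* lies above *Sh2d2a* in control and below it with Eomes, and *Sla* lies below *Sla2* with Eomes. *Orai1* lies closer to *Orai3*, and *Cbl* and *Cblb* have nearly the same proportion in both libraries.

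The enzymes and exchange factors on the scaffold were close to equal. *Plcg1*, which cleaves the membrane lipid PIP2, was at 16.4 in control and 13.1 with Eomes, a log2 ratio of -0.32 (interval -0.44 to -0.21) and the largest difference in this group of 5. *Vav1*, the exchange factor for Rac, was at 42.7 and 43.0. *Was*, the actin regulator mutated in Wiskott-Aldrich syndrome, was at 80.8 and 83.0. The Ras exchange factors *Rasgrp1* and *Sos1* were at 16.9 and 18.6 and at 2.38 and 2.65, respectively. The level of *Sos1* was the lowest of all 40 genes in control. The group summed to 159.2 in control and 160.3 with Eomes.

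In the NF-kB branch no gene was past 1.5-fold. *Prkcq*, which encodes protein kinase C theta, was the member with the largest log2 ratio, 0.31 (interval 0.24 to 0.38), from an FPKM of 43.6 in control and 54.1 with Eomes. *Bcl10* and *Malt1*, which form the signalling complex below it, were at 18.1 and 16.4 and at 23.6 and 20.8. *Malt1* had a log2 ratio of -0.18, and of -0.44 after centring by GC content. The subunits of NF-kB itself, *Nfkb1* and *Rela*, were at 148.3 and 146.9 and at 52.6 and 48.1. The 5 genes summed to an FPKM of 286.3 in control and 286.4 with Eomes.

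The calcium branch had the lowest summed level relative to control of the 8 roles, 110.6 against 126.7 (87.2%). *Orai1*, the pore of the calcium release-activated channel, was at an FPKM of 25.6 in control and 16.2 with Eomes. Its log2 ratio was -0.66, and the interval of -0.81 to -0.51, from about 925 and 576 reads, spans 1.5-fold. It was -0.56, within 1.5-fold, after centring by GC content. *Stim1*, the calcium sensor of the endoplasmic reticulum that opens Orai1, was at 18.4 and 16.6. The ratio of *Orai1* to *Stim1* was 1.39 in control and 0.975 with Eomes. *Orai2* and *Orai3*, related channel subunits, were at 6.89 and 5.52 and at 12.3 and 10.1, so that the 3 channel genes summed to 44.7 and 31.8. The share of *Orai1* among them was 57.1% and 50.9%. *Nfatc1*, a transcription factor freed by calcium signals and one that is itself induced by them, was at 46.6 and 39.2 (log2 ratio -0.25, interval -0.31 to -0.18). *Nfatc2* was at 18.7 and 18.3 and *Nfatc3* at 17.6 and 20.2. *Nfatc1* remained the most abundant of the 3 NFAT genes, with 56.2% of their summed FPKM in control and 50.4% with Eomes.

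*Orai1* lies on the plus strand of chromosome 5 of mm10 from 123015074 to 123030456, between the expressed genes *Kdm2b* (log2 ratio -0.21) and *Tmem120b* (-0.35). It and *Txk* are the genes past 1.5-fold whose promoters were in the RefSeq table used here (build GRCm38.p6, the assembly of mm10), and they differed in opposite directions. The 250 bases before a start site, for *Txk* the one where its annotated span begins, are shown for both because they differ in base composition. The *Txk* stretch (chr5:72752778-72753027, minus strand) has a GC content of 42.8%, and the *Orai1* stretch (chr5:123014824-123015073, plus strand) one of 70.8%. The median over 7938 expressed genes was 61.2%, with each gene taken at its start site of highest GC content. Capitals mark the letters GGAAA, the core of NFAT sites, and GGGCGG, the GC box, on either strand.
Txk: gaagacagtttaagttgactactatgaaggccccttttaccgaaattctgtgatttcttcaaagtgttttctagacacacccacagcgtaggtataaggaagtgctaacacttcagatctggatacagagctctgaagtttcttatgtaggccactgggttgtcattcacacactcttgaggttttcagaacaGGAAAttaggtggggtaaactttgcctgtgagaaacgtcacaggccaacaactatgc
Orai1: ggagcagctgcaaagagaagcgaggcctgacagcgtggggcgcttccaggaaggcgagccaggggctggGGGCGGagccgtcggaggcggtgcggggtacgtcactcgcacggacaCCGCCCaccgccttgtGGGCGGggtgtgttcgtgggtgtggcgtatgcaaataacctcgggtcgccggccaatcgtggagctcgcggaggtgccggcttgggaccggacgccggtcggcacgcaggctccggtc

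The *Txk* stretch holds GGAAA 1 time and no GGGCGG, and the *Orai1* stretch holds GGGCGG 3 times and no GGAAA. Both motifs were chosen after the values had been seen. The table holds another start site of *Txk* (chr5:72736603-72736852, GC content 44.4%), whose stretch has GGAAA 2 times and no GC box. On either strand, GGAAA was found for 25 of the 33 signalling genes in the table (75.8%), for 59.0% of 7938 expressed genes and in 55.6% of all 32851 promoters. GGGCGG was found for 20 of the 33 (60.6%), for 65.9% of expressed genes and in 32.7% of all promoters. The T-box core AGGTGT, the motif bound by Eomes and T-bet, was in none of these stretches. It was found in promoters of 3 of the 33 signalling genes (9.09%), *Plcg1*, *Csk* and *Ubash3b*, beside 11.2% of 7938 expressed genes and 11.8% of all promoters. The longer form AGGTGTNA was found for 1 of the 33 genes, for 2.46% of expressed genes and in 2.68% of all promoters. Shares of genes count a match at any listed start site, and shares of promoters count each start site by itself. These are matches of letters in short windows.

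Among the phosphatases and the module around Csk, *Ptpn6* differed most. It encodes SHP-1, a phosphatase that opposes receptor signalling, and its FPKM was 194.5 in control and 146.3 with Eomes. The log2 ratio of -0.41 (interval -0.46 to -0.36) lay inside the central 95% of genes with a mean FPKM of at least 100, which ran from -0.45 to 0.31. *Csk*, the kinase that holds Lck in its closed form, was at 140.7 and 144.9, and *Ptpn22*, the phosphatase that acts with it, at 68.3 and 76.4. *Ptpn6* was thus 1.38 times *Csk* in control and 1.01 times *Csk* with Eomes. *Ptprc*, which encodes CD45, was at 66.2 and 77.1, a log2 ratio of 0.22 that turned to -0.04 after centring by GC content. *Pag1*, the membrane anchor of Csk, was at 2.53 and 2.46.

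The inhibitory adaptors and ubiquitin ligases held the remaining gene past 1.5-fold. *Sla* encodes SLAP, an adaptor that directs receptor chains to degradation through Cbl. Its FPKM was 47.2 in control and 27.6 with Eomes, a log2 ratio of -0.77 (interval -0.86 to -0.68, from about 2688 and 1549 reads). It was 1.71-fold higher in control, and its log2 ratio was -0.88 after centring by GC content. *Sla2*, its close relative, was at nearly the same level in control (46.2) but at 39.9 with Eomes. The ratio of *Sla* to *Sla2* was 1.02 and 0.692. *Sla* lies on the minus strand of chromosome 15 of mm10 from 66780819 to 66831829, inside the annotated span of *Tg* on the other strand. *Tg*, the thyroglobulin gene, was listed at 5.79 in control and 3.70 with Eomes. Whether reads were counted by strand is not given in the sources used here, so reads of *Sla* and *Tg* may not be told apart. *Ndrg1*, the nearest expressed gene upstream of *Sla* (97.5 kb between the annotated spans), was at 23.5 and 8.56, a log2 ratio of -1.46. *Phf20l1*, the nearest on the other side (133 kb), was at 4.14 and 4.44 (0.10).

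The other inhibitors in this group were near equal. *Cblb*, the ubiquitin ligase that limits activation without costimulation, was at 32.4 in control and 37.0 with Eomes, and its relative *Cbl* at 13.8 and 15.9. Their proportion was 2.34 and 2.33, and their log2 ratios were 0.19 and 0.20. *Ubash3a* and *Ubash3b*, phosphatase-like suppressors of Zap70 signalling, were at 25.5 and 25.3 and at 23.7 and 25.8. Of the diacylglycerol kinases, which remove the activator of protein kinase C theta and Rasgrp1, *Dgkz* was at 111.9 and 109.5. *Dgka* was at 31.4 and 23.0, a log2 ratio of -0.45 (interval -0.56 to -0.35) that lay just inside the central 95% of its band (-0.46 to 0.40). *Dgkz* was 3.56 times *Dgka* in control and 4.77 times with Eomes.

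The calls among the 40 genes were also set beside transcript GC content, since the log2 ratio was lower at higher GC content, with a Spearman's rho of -0.43 over 9835 expressed genes and of -0.23 over the 40 signalling genes. Genes are not independent replicates, and all points share the same 2 libraries. Centring moved *Sh2d1a*, with a transcript GC content of 36.9%, from -0.86 to -1.12, and *Orai1*, with 58.6%, from -0.66 to -0.56. Of the 40 genes, 7 changed the sign of a log2 ratio. The median of the 40 was then -0.01.

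**Figure D4:**
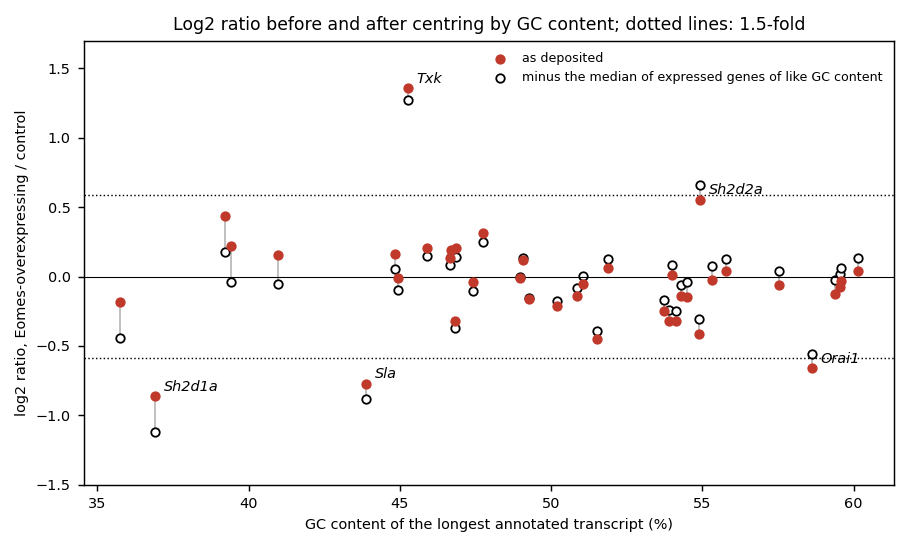
Log2 ratio (Eomes-overexpressing over control) of the 40 signalling genes against transcript GC content (longest annotated transcript), as deposited (red) and after the median of expressed genes of like GC content was subtracted (open), with 1.5-fold as dotted lines. *Txk*, *Sh2d1a* and *Sla* stay outside the dotted lines, *Orai1* moves inside at -0.56 and *Sh2d2a* moves outside at 0.66.

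A further list of 87 genes of the pathway that are not among the 40 was examined in the same way. Of these, 84 were expressed, 5 were more than 1.5-fold higher and none lower with Eomes, beside 2.46% and 5.19% of all expressed genes. Their median log2 ratio was 0.01. *Tec* is described above. *Dok2*, an adaptor that restrains Ras and Zap70 signalling, was at an FPKM of 48.0 in control and 83.2 with Eomes, a log2 ratio of 0.79 (interval 0.71 to 0.88). *Nedd4*, a ubiquitin ligase, was at 13.2 and 23.4 (0.83, interval 0.73 to 0.92). *Vav3*, a relative of Vav1, was at 0.80 and 1.89, a log2 ratio of 1.24 (interval 0.85 to 1.65, from about 77 and 180 reads). *Ppp3ca*, a catalytic subunit of calcineurin, was at 5.80 and 8.83, and its log2 ratio of 0.61 was 0.52 and within 1.5-fold after centring by GC content. The lowest log2 ratios among the 84 expressed genes of the list were those of *Prkd2*, *Nfkb2*, *Itpr2* and *Nfkbie*, between -0.43 and -0.42.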

How the data were processed

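RNA sequencing covered a control and an Eomes-overexpressing culture, with 1 library each. The authors filtered reads with SOAPnuke, mapped them to mm10 with HISAT and Bowtie2, and computed values with RSEM. The deposited files give FPKM (RPKM in the methods) per gene symbol, listed from 0.01 upward with 2 decimals. No scaling between libraries is stated. Symbols turned into dates (20 in control, 19 in Eomes) were left out. Log2 ratios were taken in pandas 2.3.3 and numpy 2.4.6 (Python 3.11.15), intervals in scipy 1.17.1, and figures were drawn in matplotlib 3.10.9. A floor of 0.01 replaced lower and unlisted values. A gene counted as expressed if either library had an FPKM of 1 or more, and the threshold was 1.5-fold. The study used the same fold together with a limit on the false discovery rate, which was not applied here. Depth was the value at which low FPKM (up to 6 reads) of genes with 1 RefSeq-matched transcript lay nearest whole reads. Lengths, GC content and positions came from GENCODE vM21. The steps were tested on simulated data made with the same transcript lengths, so errors in these lengths were not covered. All 40 genes are named, as are other pathway genes past 1.5-fold, *Eomes* and cell type markers. Other genes named (relatives, neighbours and overlapping genes) were chosen after values were seen. The genes and lists were chosen with earlier results of these data known. Of the further pathway list, counts cover the whole list and most genes are given no value of their own.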

Additional observations from a re-analysis of the deposited data

How the results depend on the processing

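The count of signalling genes past 1.5-fold was 4 in the values above and ranged from 4 to 5 under a pseudocount of 0.1 or 1, no minimum FPKM, a minimum of 5, division by the summed FPKM, centring on the median, a trimmed mean of log ratios and centring by GC content. The share past 1.5-fold over all genes kept by each setting was less constant. It was 4.06% with a pseudocount of 1, 4.10% with a minimum of 5 and 23.4% with no minimum. Under the rest it lay between 6.85% and 7.63%. With a 2-fold threshold the count of signalling genes was 1 (*Txk*), beside 2.46% of all expressed genes. The further pathway list then also gave 1 gene (*Vav3*). Under the other alternatives that list gave 4 to 6 genes. The median log2 ratio of the 40 genes stayed between -0.04 and -0.0036. Centring by GC content moved 19 of 40 log2 ratios out of their counting interval, and the other alternatives moved none. A changed minimum FPKM or fold threshold leaves the log2 ratios as they are, so these settings could move none. Centring on the median shifted log2 ratios by only 0.0037 and the trimmed mean by 0.00017. No paired analysis was possible because each group has 1 library. Approximated reads rest on reference transcript lengths, so the intervals are approximate.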

Other observations

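The receptors of the SLAM family, some of which bind the product of *Sh2d1a* through their tails, were looked up after the value of *Sh2d1a* had been seen. *Slamf1* was at an FPKM of 5.05 in control and 2.57 with Eomes, a log2 ratio of -0.97 (interval -1.29 to -0.67). *Cd244* went the other way, from 2.92 to 5.81. *Slamf1* lay inside the central 95% of expressed genes at its level (-1.21 to 0.78), and *Cd244* lay above that range. *Ly9*, *Cd84* and *Slamf7* had log2 ratios of 0.38, 0.44 and 0.39, and *Slamf6* one of -0.38 (interval -0.75 to -0.02). *Cd48*, which encodes the ligand of the CD244 receptor, was at 89.0 and 95.6. *Sh2d1b1*, which encodes EAT-2, a relative of SAP best known from natural killer cells, was at 0.21 and 1.21, from about 10 and 58 reads (log2 ratio 2.53, interval 1.58 to 3.69). *Sh2d1a* remained far more abundant than *Sh2d1b1* in both libraries. These values come from 1 library per condition and carry no test.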
